A study of Mus musculus with 6 samples.

Results

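The genes described here copy the DNA and then divide the cell. They were 43 named genes, 20 of DNA replication and 23 of mitosis, chosen by symbol and function from the 24421 gene entries of a count table, with earlier results of these data known. The table holds RNA sequencing reads of monocytes, phagocytes made in the bone marrow, sorted from marrow of B6 mice. The 3 GM-CSF libraries came from cells given 5 ng of GM-CSF (granulocyte-macrophage colony-stimulating factor, which drives growth and activation of myeloid cells; no volume is stated) for 3 h. The 3 control libraries came from cells that one label calls freshly isolated, while another label describes medium with or without GM-CSF, so time in culture and GM-CSF cannot be told apart. Both groups are wild-type B6 cells as far as the labels say, and neither the age and sex of the mice nor the number pooled per library is given. Nothing in the labels says that the replicates were separate mice or cultures, so the p-values measure no more than the differences among these libraries, which could be technical.

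The libraries held 16643228 to 25232956 gene reads each.

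Before a cell copies its DNA, the origin recognition complex (ORC), CDC6 and CDT1 load the MCM2 to MCM7 helicase onto replication origins, and in S phase CDC45 and the GINS proteins turn it into the moving helicase of the replication fork. Genes of this programme are classical targets of E2F transcription factors, which cyclin E and its kinase release from RB-family repressors. Genes of mitosis are switched on later, in G2, through promoters with CCAAT boxes and a short element called CHR (cell cycle genes homology region), at which the DREAM, B-MYB and FOXM1 complexes act. Differentiated monocytes divide little, while their committed precursors in marrow cycle actively.

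In these libraries the 20 replication genes and the 23 mitotic genes chosen here went different ways. Of the 20 replication genes, 11 rose with GM-CSF, 2 fell and 7 did not pass the test, with a median log2 fold change of 0.31. Of the 23 mitotic genes, 16 fell, none rose and 7 did not pass, with a median of -0.40. Across all 11731 genes tested, 32.8% rose and 31.2% fell (64.0% in either direction) at an adjusted p under 0.05 in edgeR's quasi-likelihood test, and the median log2 fold change was 0.01. The GM-CSF libraries all lay above the control libraries in 11 replication genes and no mitotic gene (34.9% of all genes tested), and all below them in 2 replication and 16 mitotic genes (34.7%). No mitotic gene was higher at an unadjusted p under 0.05 either (0 of 23), nor in DESeq2 or limma-voom (0 each). All 43 members passed the filter on low counts; the lowest count of a replication gene in any library was 130 reads, and of a mitotic gene 369. The difference between the gene groups was described by counts and medians and was not itself tested. The rise did not extend to 48 other replication genes described below, of which 12 rose and 15 fell (median -0.01). Of 55 other mitotic genes, 2 rose and 36 fell (median -0.36).

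**Figure D1:**
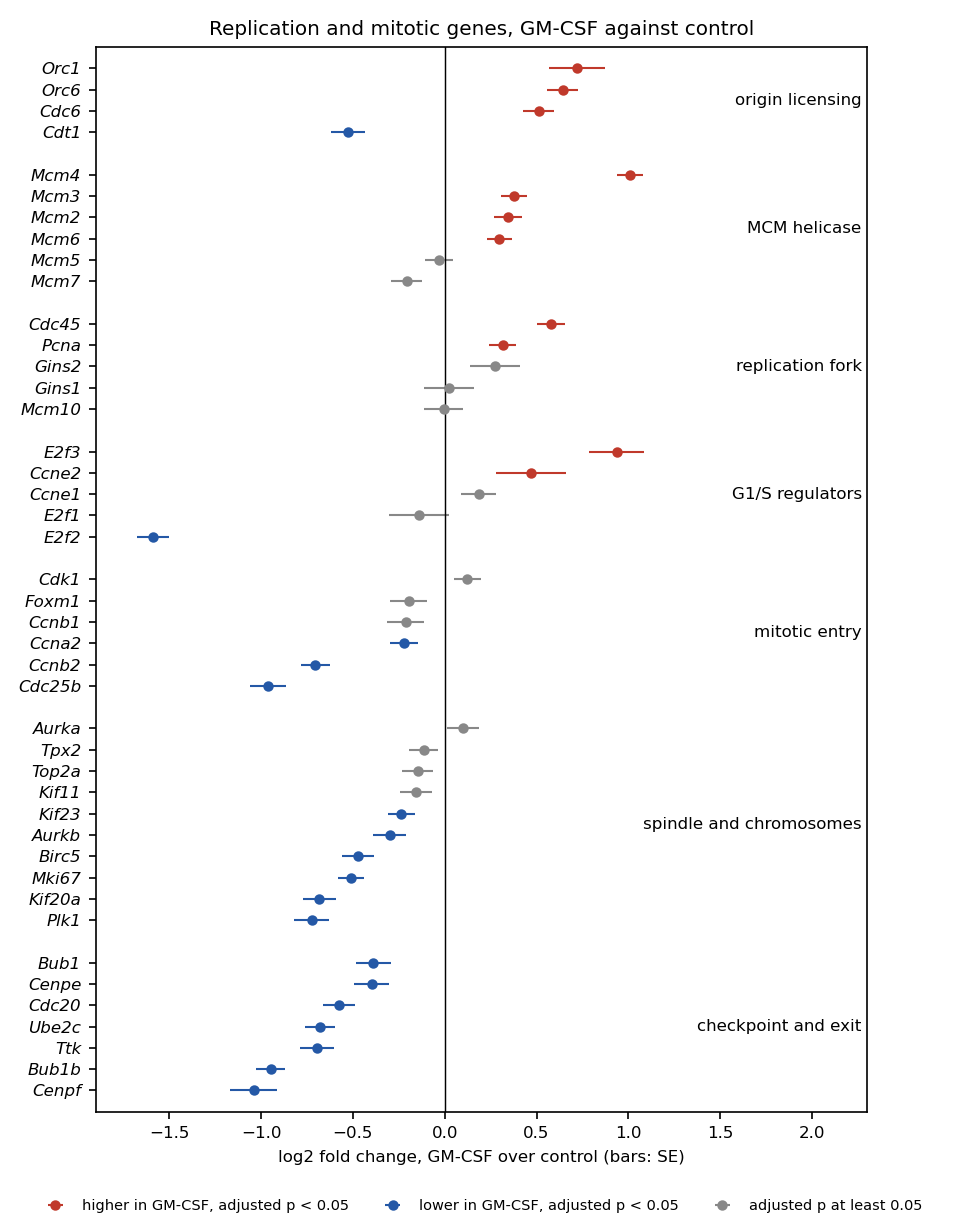
Log2 fold change of each of the 43 genes, GM-CSF over control, on the horizontal axis, with its SE (3 libraries per group), grouped by role; red and blue points passed the edgeR test and grey points did not. Most points of the upper 4 groups (replication) that passed lie right of 0, except Cdt1 and E2f2, and all points of the lower 3 groups (mitosis) that passed lie left of it.

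E2F motifs were more frequent in promoters of the replication genes and CHR motifs in those of the mitotic genes, as a description with no test, and 6 promoters are shown as examples of these matches. RefSeq windows on GRCm38.p6, from 250 bases before to 50 after the start of the gene, were found for 16 replication and 18 mitotic genes. Mcm4, Gins1, Gins2, Ccne2, Ccna2, Aurkb, Kif20a, Tpx2 and Foxm1 had no window and were not searched. An E2F motif (TTTCCCGC, TTTCGCGC, TTTGCCGC or TTTGGCGC, on either strand) was present in 9 of 16 replication genes (56.2%) and in 1 of 18 mitotic genes (5.56%), against 4.85% of the 8983 tested genes with a window and 2.6% of all 27025 genes with one. A CHR motif (TTTGAA or TTCGAA, on either strand) was present in 15 of 18 mitotic genes (83.3%) and 5 of 16 replication genes (31.2%), against 16.6% of tested genes and 21.7% of all genes. The CCAAT box (CCAAT, on either strand) was in 17 of 18 mitotic genes (94.4%) and 12 of 16 replication genes (75.0%), against 43.3% of tested genes. Where a gene has several windows, a match in any of them was counted. The E2F and CHR sequences do not overlap each other, and a match describes letters, not a bound site. Shown first are the 3 replication genes with an E2F match and the largest change in either direction, then the 3 mitotic genes with a CHR match and the largest change. Capitals mark the E2F and CHR matches, and each window reads 5′ to 3′ along its gene.
E2f2, chr4:136172024-136172323, plus strand: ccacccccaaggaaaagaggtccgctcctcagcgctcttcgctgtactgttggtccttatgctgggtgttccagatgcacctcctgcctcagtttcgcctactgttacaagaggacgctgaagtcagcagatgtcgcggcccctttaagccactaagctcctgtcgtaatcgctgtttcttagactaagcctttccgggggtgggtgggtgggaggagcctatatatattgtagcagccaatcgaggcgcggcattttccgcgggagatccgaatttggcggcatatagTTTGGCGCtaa
E2f3, chr13:29986014-29986313, minus strand: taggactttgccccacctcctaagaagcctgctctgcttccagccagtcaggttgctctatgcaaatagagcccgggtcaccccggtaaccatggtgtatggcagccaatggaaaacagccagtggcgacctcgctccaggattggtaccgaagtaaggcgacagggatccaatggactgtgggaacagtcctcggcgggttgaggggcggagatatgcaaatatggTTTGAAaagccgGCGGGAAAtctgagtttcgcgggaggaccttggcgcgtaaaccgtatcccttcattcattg
Orc1, chr4:108579204-108579503, plus strand: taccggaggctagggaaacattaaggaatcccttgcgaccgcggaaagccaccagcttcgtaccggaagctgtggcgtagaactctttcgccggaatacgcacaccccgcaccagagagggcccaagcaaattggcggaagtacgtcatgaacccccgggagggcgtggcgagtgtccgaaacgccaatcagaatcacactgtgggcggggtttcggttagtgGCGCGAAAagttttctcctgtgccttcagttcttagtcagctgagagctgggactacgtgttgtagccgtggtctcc
Cenpf, chr1:189688037-189688336, minus strand: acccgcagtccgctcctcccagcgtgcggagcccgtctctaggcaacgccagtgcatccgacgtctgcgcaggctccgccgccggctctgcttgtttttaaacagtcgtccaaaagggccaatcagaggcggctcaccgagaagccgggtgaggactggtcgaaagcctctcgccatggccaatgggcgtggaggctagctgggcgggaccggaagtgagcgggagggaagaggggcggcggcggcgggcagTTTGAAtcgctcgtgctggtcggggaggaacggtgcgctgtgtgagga
Cdc25b, chr2:131186698-131186997, plus strand: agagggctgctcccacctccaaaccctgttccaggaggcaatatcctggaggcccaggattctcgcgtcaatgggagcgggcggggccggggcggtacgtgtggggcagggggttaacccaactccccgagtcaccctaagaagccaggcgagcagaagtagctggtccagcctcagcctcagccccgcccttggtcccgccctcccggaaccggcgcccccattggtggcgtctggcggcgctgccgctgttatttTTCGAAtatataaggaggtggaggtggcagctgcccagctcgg
Bub1b, chr2:118597961-118598260, plus strand: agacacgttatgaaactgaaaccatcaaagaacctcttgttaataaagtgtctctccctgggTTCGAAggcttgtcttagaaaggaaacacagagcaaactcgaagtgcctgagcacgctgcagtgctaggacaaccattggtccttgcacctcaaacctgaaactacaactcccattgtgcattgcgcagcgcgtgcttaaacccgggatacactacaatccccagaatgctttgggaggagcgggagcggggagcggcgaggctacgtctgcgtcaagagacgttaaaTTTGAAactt
The E2F match of Orc1 lies 27 bases before the start and that of E2f3 11 bases before it, and that of E2f2 lies downstream of the start. E2f3 also has a CHR match 23 bases before its start. In Cenpf, Cdc25b and Bub1b a CHR match lies downstream of the start, and Bub1b has another upstream. By outcome, the E2F motif was in 5 of 9 members that rose and 2 of 15 that fell, and the CHR motif in 3 of 9 that rose and 12 of 15 that fell. Members that did not pass had them in 3 of 10 and 5 of 10. Motif and functional group are associated in these genes, so the shares by outcome do not separate them.

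**Figure D2:**
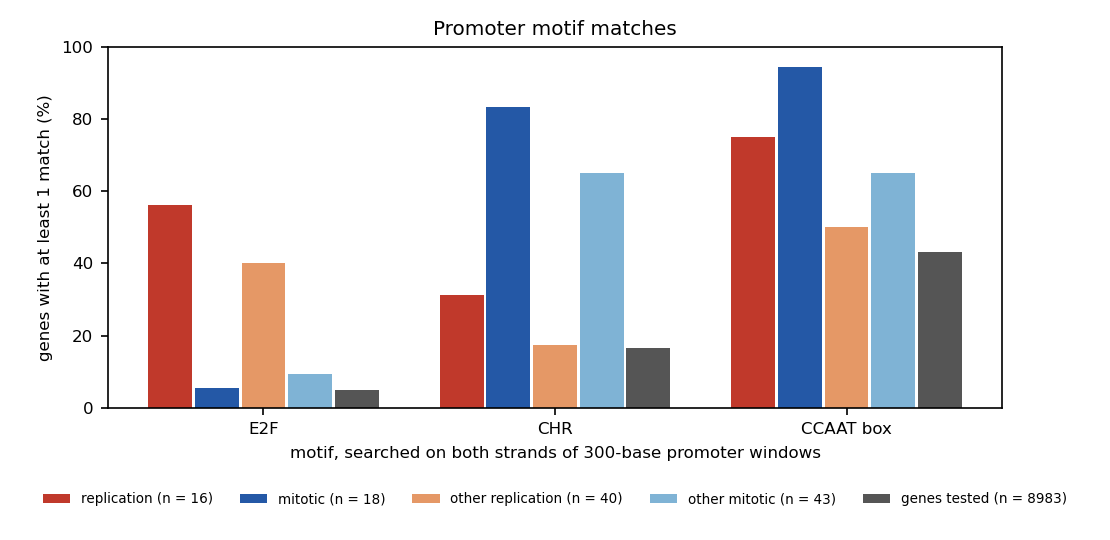
Percentage of genes with at least 1 match (vertical axis) to the E2F, CHR and CCAAT motifs in 300-base promoter windows, for the 2 gene groups, for other genes of the same processes and for all genes tested with a window. The E2F bar is highest for replication genes (56.2%) and the CHR bar for mitotic genes (83.3%).

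Of the 4 genes that license origins, Orc1, Orc6 and Cdc6 rose and Cdt1 fell. Orc1, whose product is the largest ORC subunit, had 9.83, 9.97 and 10.01 CPM (counts per 1000000 gene reads) in GM-CSF libraries, against 5.42, 5.94 and 6.88 CPM in control libraries (log2 fold change 0.72 ± 0.15, SE; adjusted p = 0.00176). Orc6, the smallest subunit, had 60.7, 55.3 and 59.0 CPM with GM-CSF, against 37.7, 38.5 and 36.5 CPM in control (0.64 ± 0.09; adjusted p = 6.65e-05). For Orc1 and Orc6 the groups were well apart, with every GM-CSF library above every control library. Cdc6, the ATPase that joins ORC to recruit the helicase, averaged 49.3 ± 2.10 CPM in GM-CSF and 34.7 ± 1.26 CPM in control libraries (SD, n = 3 each; log2 fold change 0.51 ± 0.08). Cdt1, the helicase's loading partner, went the other way, with 40.5, 37.1 and 43.7 CPM in GM-CSF libraries, all below the 54.9, 58.9 and 62.2 CPM of control libraries (log2 fold change -0.53 ± 0.09; adjusted p = 5.04e-04). Gmnn, whose product geminin binds and inhibits CDT1, fell as well (47.9 ± 1.40 CPM in GM-CSF, 75.2 ± 5.204 CPM in control; -0.64 ± 0.08). An exon of Orc6 overlaps Vps35 on the opposite strand.

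The 6 subunits of the MCM helicase, which works as a single ring, changed unequally. Mcm4 moved most, with 248, 250 and 267 CPM in GM-CSF libraries, against 120, 133 and 130 CPM in control libraries, 2.01-fold higher (log2 fold change 1.01 ± 0.07; adjusted p = 4.34e-07). The 3 libraries of each group lay close together for Mcm4. Mcm3, Mcm2 and Mcm6 rose by less, by 0.38 ± 0.07, 0.34 ± 0.07 and 0.30 ± 0.07 on the log2 scale, and in each the groups did not overlap. Mcm6, for instance, had 332, 338 and 312 CPM with GM-CSF and 260, 258 and 285 CPM in control. Mcm5 did not pass, at 371 ± 23.9 CPM in GM-CSF and 381 ± 27.2 CPM in control libraries (log2 fold change -0.03 ± 0.08), and its groups overlapped. Mcm7 was at 166, 182 and 194 CPM in GM-CSF and 189, 212 and 229 CPM in control libraries (-0.21 ± 0.08; adjusted p = 0.0509), and 8 of 14 alternative settings put it past the threshold as lower. Exons of Mcm7 overlap Cops6 and Ap4m1 on the opposite strand and 2 microRNAs that lie within it.

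Among the genes of the moving fork, Cdc45 and Pcna rose and Gins1, Gins2 and Mcm10 did not pass. Cdc45, which joins the MCM ring to form the active helicase, had 135, 149 and 150 CPM in GM-CSF libraries, against 90.4, 97.7 and 104 CPM in control libraries (log2 fold change 0.58 ± 0.08; adjusted p = 5.72e-05). Pcna, the sliding clamp that holds DNA polymerases on DNA, had 164, 159 and 160 CPM with GM-CSF and 133, 120 and 137 CPM in control (0.31 ± 0.07; adjusted p = 0.00331). In both genes all GM-CSF libraries were above all control libraries. Gins1 and Gins2, subunits of the GINS complex, averaged 19.5 ± 3.01 and 22.9 ± 2.24 CPM with GM-CSF and 19.3 ± 1.45 and 19.1 ± 3.00 CPM in control (log2 fold changes 0.02 ± 0.14 and 0.27 ± 0.14). Mcm10, a scaffold protein that helps start the fork, was at 39.3 ± 3.64 CPM with GM-CSF and 39.6 ± 3.61 CPM in control (-0.01 ± 0.11). The last 3 genes had overlapping groups. Most exonic sequence of Gins2 overlaps Gse1 on the opposite strand, and pseudogenes of Pcna are annotated whose reads could be counted with it.

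The regulators of the G1 to S transition held the largest change of all 43 genes. E2f2, an activating E2F, had 52.2, 62.8 and 62.9 CPM in GM-CSF libraries, against 172, 176 and 190 CPM in control libraries (log2 fold change -1.59 ± 0.09; adjusted p = 6.18e-08), to 0.332 of the control level with no overlap. E2f3, another activating E2F, rose, with 12.9, 15.8 and 12.6 CPM with GM-CSF and 6.502, 7.17 and 7.99 CPM in control (0.94 ± 0.15; adjusted p = 2.47e-04). The founding member E2f1 did not pass, and its GM-CSF libraries spread widely, at 44.6, 62.2 and 80.9 CPM around the 68.3, 70.3 and 69.6 CPM of control libraries (-0.14 ± 0.16). E2f1 was at -0.37 and called without GM-CSF replicate 3 (adjusted p = 0.0124), and at 0.04 without GM-CSF replicate 1 (adjusted p = 0.756). Ccne2, a cyclin E gene, had 12.9, 13.9 and 8.66 CPM with GM-CSF and 9.46, 8.04 and 8.08 CPM in control (0.47 ± 0.19; adjusted p = 0.0482). GM-CSF replicate 3 of Ccne2 lay among the controls, and only 4 of 14 alternative settings kept the call (0.35 to 0.66). The other cyclin E gene, Ccne1, averaged 36.7 ± 0.976 CPM with GM-CSF and 32.4 ± 2.70 CPM in control (0.19 ± 0.10; adjusted p = 0.112), although its groups did not overlap, as in 69.5% of all genes tested. Exonic bases of Ccne2 overlap Ints8 on the opposite strand.

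**Figure D3:**
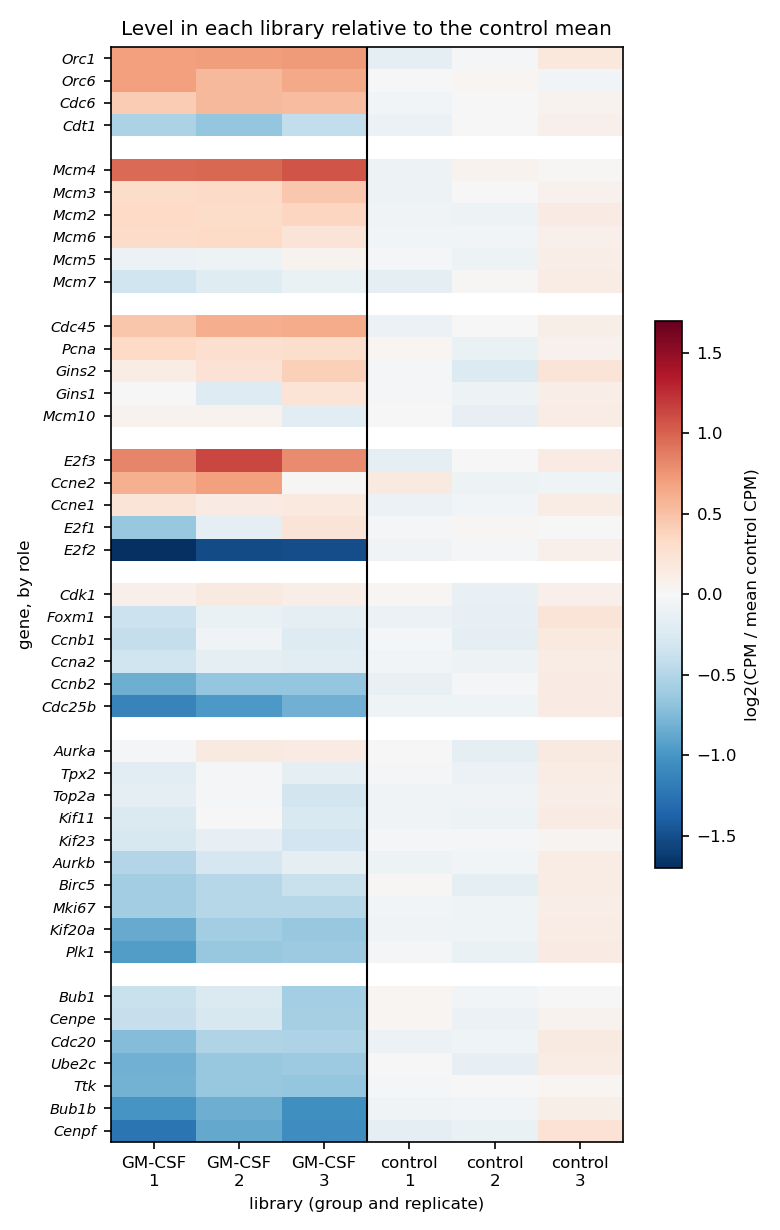
Level of each of the 43 genes in each library as log2 of its CPM over the mean control CPM (colour), with the 3 GM-CSF libraries left of the 3 control libraries and genes ordered by role. Rows of Mcm4 and E2f3 are red and rows of E2f2, Cenpf, Cdc25b and Bub1b are blue in all 3 GM-CSF libraries, while E2f1 ranges from blue in GM-CSF replicate 1 to light red in replicate 3.

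Of the 6 genes for entry into mitosis, Cdc25b, Ccnb2 and Ccna2 fell, and Cdk1, Ccnb1 and Foxm1 did not pass. Cdk1, the kinase that drives mitosis, had 208, 220 and 212 CPM in GM-CSF libraries and 200, 181 and 210 CPM in control libraries (log2 fold change 0.12 ± 0.07; adjusted p = 0.165). Cdc25b, the phosphatase that starts its activation, had 37.4, 41.7 and 46.9 CPM with GM-CSF, against 78.5, 78.3 and 90.3 CPM in control (-0.96 ± 0.10; adjusted p = 9.19e-06). For Cdc25b the groups lay far apart, while those of Cdk1 overlapped. Ccnb2, a cyclin B gene, had 122, 138 and 137 CPM with GM-CSF, against 200, 212 and 239 CPM in control (-0.70 ± 0.08; adjusted p = 1.90e-05). Its relative Ccnb1 did not pass, with 140, 178 and 160 CPM in GM-CSF libraries and 182, 166 and 208 CPM in control libraries (-0.21 ± 0.10; adjusted p = 0.0849). Ccna2, the cyclin of S phase and G2, fell, with 230, 259 and 257 CPM with GM-CSF and 282, 274 and 319 CPM in control (-0.22 ± 0.08; adjusted p = 0.0268). Its call ended without GM-CSF replicate 1 (-0.18) or control replicate 3 (-0.17). Foxm1, the transcription factor of many G2 genes, was at 76.5 ± 6.86 CPM with GM-CSF and 88.2 ± 12.2 CPM in control (-0.20 ± 0.10; adjusted p = 0.117). Exons of Ccna2 and Cdc25b overlap Exosc9 and Spef1 on the opposite strand, and pseudogenes of Ccnb1 and Ccnb2 are annotated.

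Of the 10 genes for spindle and chromosome proteins, 6 fell (31.2% of all genes tested) and 4 did not pass. Plk1, a kinase that acts throughout mitosis, had 108, 132 and 135 CPM in GM-CSF libraries, against 203, 192 and 229 CPM in control libraries (log2 fold change -0.72 ± 0.10; adjusted p = 6.11e-05). Kif20a, a kinesin of cytokinesis, had 67.9, 81.8 and 78.9 CPM with GM-CSF, against 118, 117 and 134 CPM in control (-0.68 ± 0.09). Mki67, which encodes the proliferation marker Ki-67, had 132, 142 and 142 CPM with GM-CSF, against 192, 189 and 214 CPM in control (-0.51 ± 0.07; adjusted p = 9.30e-05). These 3 genes were lower in every GM-CSF library than in any control library. Birc5 (-0.47 ± 0.09), Aurkb (-0.30 ± 0.09) and Kif23 (-0.24 ± 0.07) fell too; the first 2 encode survivin and Aurora B, partners in the chromosomal passenger complex, and the last a kinesin of the central spindle. The calls of Aurkb (-0.25) and Kif23 (-0.23) ended without control replicate 3. Top2a, Kif11, Tpx2 and Aurka, for topoisomerase II alpha, the kinesin that separates spindle poles, a spindle assembly factor and Aurora A, lay between -0.16 and 0.10, with SE of 0.08 to 0.09 and overlapping groups. Aurka, for example, had 135, 153 and 151 CPM in GM-CSF libraries and 137, 123 and 152 CPM in control libraries. An exon of Kif20a overlaps Cdc23 on the opposite strand.

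All 7 genes of the spindle checkpoint and of the exit from mitosis fell (31.2% of all genes tested), with a median log2 fold change of -0.68. Cenpf, a kinetochore protein gene, had 22.0, 28.4 and 24.9 CPM in GM-CSF libraries, against 46.3, 47.8 and 61.7 CPM in control libraries (-1.04 ± 0.13; adjusted p = 3.37e-05). Bub1b, which encodes the checkpoint protein BUBR1, had 114, 129 and 110 CPM with GM-CSF, against 218, 220 and 245 CPM in control (-0.95 ± 0.08; adjusted p = 1.55e-06). They fell to 0.486 and 0.519 of the control level, with no overlap of groups. Ttk, the kinase MPS1 at the top of the checkpoint, had 23.2, 25.8 and 25.6 CPM with GM-CSF, against 39.6, 40.4 and 41.3 CPM in control (-0.69 ± 0.09). Ube2c and Cdc20, the ubiquitin-conjugating enzyme and the activator of the anaphase-promoting complex that the checkpoint holds back, averaged 191 ± 13.5 and 155 ± 13.4 CPM with GM-CSF, against 307 ± 27.2 and 232 ± 22.6 CPM in control (-0.68 ± 0.08 and -0.58 ± 0.09). Cenpe, a kinesin of kinetochores, and Bub1, a checkpoint kinase, fell by 0.40 and 0.39 on the log2 scale. No checkpoint or exit gene of the 7 had overlapping groups, and 34.7% of all genes tested had all GM-CSF libraries below all control libraries. Cdc20 and Ube2c share exonic bases with Elovl1 and Tnnc2 on the opposite strand.

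Summed over members, replication genes made up 2256, 2318 and 2417 CPM in GM-CSF libraries, against 2010, 2036 and 2226 CPM in control libraries. Mitotic genes summed to 2836, 3215 and 3053 CPM in GM-CSF libraries, against 3860, 3739 and 4329 CPM in control libraries. The groups did not overlap in either sum, and GM-CSF levels were 111% of control for replication and 76.3% for mitosis. The sum over 48 other replication genes, described below, was 99.5% of control with overlapping groups. The sum over 55 other mitotic genes was 82.1% of control without overlap. Over the 43 members, the ratio of the replication sum to the mitotic sum was 0.796, 0.721 and 0.792 in GM-CSF libraries, against 0.521, 0.545 and 0.514 in control libraries. In bulk RNA, fewer cells of a type and less RNA per cell cannot be told apart. Libraries also differed within groups. Of the 23 mitotic genes, 17 were lowest in GM-CSF replicate 1 among its group, and 22 were highest in control replicate 3 among its own. The share of all genes tested with these orders was not counted. Among the 20 replication genes, 10 were lowest in GM-CSF replicate 1 and 16 were highest in control replicate 3. Without control replicate 3, 13 mitotic genes fell, and without GM-CSF replicate 1, 15 did, with medians of -0.40 and -0.41.

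**Figure D4:**
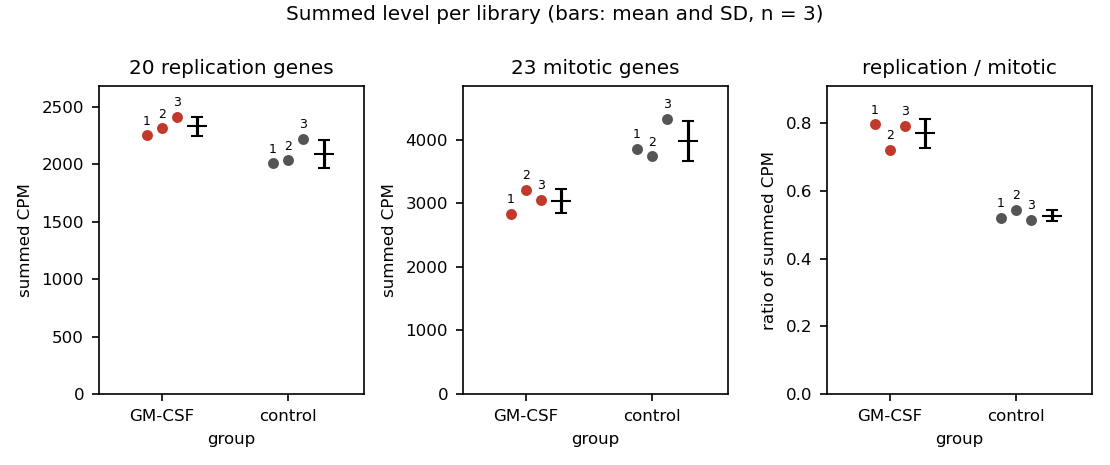
Summed CPM of the 20 replication genes, of the 23 mitotic genes, and their ratio (vertical axes) in each library, with GM-CSF left of control; points carry replicate numbers and bars give mean and SD (n = 3). Replication sums are 2256 to 2417 CPM with GM-CSF and 2010 to 2226 CPM in control, mitotic sums 2836 to 3215 CPM and 3739 to 4329 CPM.

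Per length, the order of the genes differed between the groups at its top. Divided by merged exon length, Mcm5 stood highest in GM-CSF libraries at 92.9 CPM per kb, next to Ccnb2 at 86.4, Cdc20 at 82.8 and Ube2c at 73.3 CPM per kb. In control libraries Ccnb2 led at 142 CPM per kb, before Cdc20 at 124, Ube2c at 118 and Mcm5 at 95.4 CPM per kb. Mcm4 stood at 71.0 CPM per kb with GM-CSF and 35.5 CPM per kb in control. With GM-CSF it was near Mcm3 (73.2) and Mcm6 (70.1), but above Mcm7 (40.9) and Mcm2 (27.7) and below Mcm5. Merged exon length joins all annotated exons of a gene, so levels per kb compare genes only roughly. In control libraries Mcm3 and Mcm6 were at 56.6 and 57.3 CPM per kb. The lowest in GM-CSF libraries were Cenpf at 1.63, E2f3 at 2.53 and Orc1 at 2.86 CPM per kb. The lowest in control libraries were E2f3 at 1.33, Orc1 at 1.75 and Ccne2 at 2.44 CPM per kb.

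Of 48 other replication genes, 12 rose, 15 fell and 21 did not pass, with a median log2 fold change of -0.01. These were 25.0% higher and 31.2% lower, near the 32.8% and 31.2% of all genes tested, so the counts say nothing particular about this list. Those with the largest rises were Donson, a replication factor that helps build the helicase (54.2 ± 4.93 CPM in GM-CSF, 24.3 ± 1.25 CPM in control; log2 fold change 1.16 ± 0.10), Orc2 (0.89 ± 0.10) and the polymerase delta subunit Pold2 (0.65 ± 0.08). Those with the largest falls were Timeless, a fork protection factor (18.5 ± 1.68 CPM in GM-CSF, 46.7 ± 2.28 CPM in control; -1.33 ± 0.10), the clamp loader subunit Rfc2 (-0.90 ± 0.07) and Gmnn, described above. The 2 most abundant were Dnmt1, the maintenance DNA methyltransferase (-0.17 ± 0.08; adjusted p = 0.0679), and Mcmbp, an MCM-binding protein (-0.20 ± 0.07), which fell but not without GM-CSF replicate 2 or control replicate 2.

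Of 55 other mitotic genes, 36 fell, 2 rose and 17 did not pass, with a median log2 fold change of -0.36. These were 65.5% lower and 3.64% higher, against 31.2% and 32.8% of all genes tested. The largest falls were in Aspm, a spindle pole protein gene (11.6 ± 2.09 CPM in GM-CSF, 32.2 ± 5.49 CPM in control; -1.46 ± 0.16), Cdc25c, a further activator of CDK1 (13.7 ± 0.654 CPM in GM-CSF, 32.7 ± 4.13 CPM in control; -1.25 ± 0.12), and Ckap2, a spindle microtubule protein gene (-1.08 ± 0.11). The 2 that rose were Pbk, a mitotic kinase gene (0.41 ± 0.09), and Spc25, a kinetochore gene (0.37 ± 0.08). Racgap1, a partner of KIF23 in cytokinesis, fell (-0.74 ± 0.08), and Bub3, the most abundant of the list, did not pass (-0.14 ± 0.07; adjusted p = 0.0872).

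**Figure D5:**
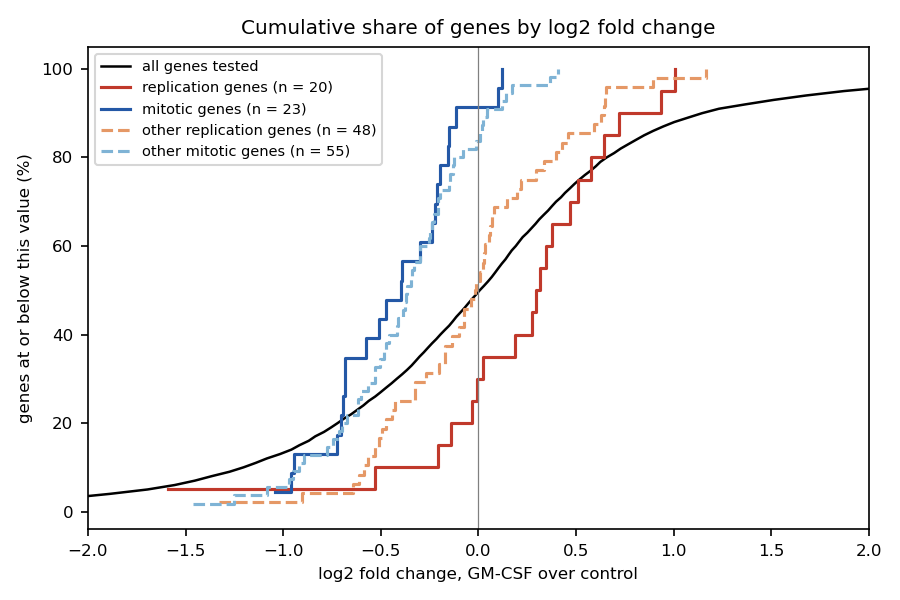
Cumulative percentage of genes (vertical axis) at or below each log2 fold change, GM-CSF over control (horizontal axis), for the 43 genes in their 2 groups, for 48 other replication and 55 other mitotic genes, and for all genes tested. Over most of their range the mitotic curves run together to the left of 0 (medians -0.40 and -0.36), while the replication curve (median 0.31) lies, but for its lowest and highest ends, to the right of the curve of other replication genes (median -0.01).

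Among 15 further genes of the E2F, RB and DREAM families, 6 rose, 2 fell and 7 did not pass, with a median log2 fold change of 0.21. These were 40% higher and 13.3% lower, against 32.8% and 31.2% of all genes tested. The share that rose was near that of all genes, and the list as a whole was not tested. E2f5, a repressive E2F, had 12.8, 11.96 and 11.4 CPM in GM-CSF libraries, against 5.46, 3.92 and 2.36 CPM in control libraries (1.61 ± 0.25; adjusted p = 2.17e-04). E2f4, the E2F of the DREAM complex, averaged 115 ± 14.2 CPM with GM-CSF and 64.0 ± 3.94 CPM in control (0.85 ± 0.10). Mybl2, which encodes B-MYB, rose likewise (76.8 ± 6.29 CPM with GM-CSF, 43.9 ± 6.05 CPM in control; 0.82 ± 0.11). The 2 that fell encode the RB relatives p130 and p107, with which E2F4 forms repressor complexes. Rbl2 was at 29.3 ± 4.11 CPM with GM-CSF and 53.6 ± 4.14 CPM in control (-0.87 ± 0.11). Rbl1 was at -0.39 ± 0.12, and at -0.24 without GM-CSF replicate 3. Tfdp1, the DNA-binding partner of E2Fs and the most abundant of the list, did not pass (0.11 ± 0.08), and its sign turned with upper quartile scaling (-0.0029).

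Markers of other marrow cells were measured in the same libraries. Beside the calls in each list, 32.8% of all genes tested rose and 31.2% fell. For the progenitor markers both shares were 33.3%, so their counts say nothing particular about that list. Lyz2, the most abundant marker of the monocyte list, had 21394 ± 1053 CPM with GM-CSF and 56025 ± 4548 CPM in control; 6 of the 8 markers fell and 2 did not pass, and the sum was 28521 to 30471 CPM with GM-CSF and 62051 to 71172 CPM in control. Markers of granulocyte-monocyte progenitors, which cycle, differed widely in level. Mpo, the myeloperoxidase gene, was the most abundant (log2 fold change 0.18 ± 0.13, edgeR adjusted p = 0.263). It had 3979, 4758 and 5292 CPM in GM-CSF libraries and 3417, 4176 and 4898 CPM in control libraries. Kit, Cd34 and Flt3 were low, at means of 14.6, 8.76 and 3.88 CPM with GM-CSF and 21.4, 4.84 and 11.5 CPM in control. Of 9 such markers 3 rose, 3 fell and 3 did not pass, and their sum was 7493 to 9585 CPM with GM-CSF and 6574 to 9230 CPM in control. Most of that sum was Mpo and Elane, which did not pass, while Kit (-0.54 ± 0.17), Flt3 (-1.57 ± 0.17) and Cebpe (-0.96 ± 0.15) fell and Cd34, Ctsg and Ms4a3 rose. Of the neutrophil list, 6 of 8 markers fell and 2 did not pass, S100a8 was highest (3584 ± 471 CPM with GM-CSF, 8137 ± 1537 CPM in control), and the sum was 9185 to 11633 CPM with GM-CSF and 20456 to 29518 CPM in control. The list for B cells and their precursors summed to 35.0 to 43.4 CPM with GM-CSF and 63.8 to 72.6 CPM in control, led by Cd79b, with 3 of 7 tested markers lower. Of 8 erythroid markers, the 4 haemoglobin genes had 0 reads in every library, and the sum, led by Alas2, was 0.466 to 1.13 CPM with GM-CSF and 2.26 to 2.96 CPM in control. Markers of dendritic cells summed to 38.8 to 46.2 CPM with GM-CSF and 72.3 to 79.1 CPM in control, most of it Bst2, which other cells express too; 1 of 6 rose and 3 fell. Of the T or NK list, 2 of 7 could be tested and neither passed, and apart from Nkg7 each of its genes stayed near or under 1 CPM. The megakaryocyte list, led by Pf4, summed to 2.04 to 2.98 CPM with GM-CSF and 1.58 to 24.5 CPM in control, with the high value in control replicate 3; 2 of 4 tested genes fell. The part of these cell types in the changes of the 43 genes was not tested.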

How the data were processed

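Poly(A) RNA was sequenced in 6 libraries (3 GM-CSF, 3 control) with paired reads, per the labels' protocols. The authors deposited a table of raw read counts per gene symbol, whose columns were matched to samples by title. Tools listed in the submitters' processing notes, without roles, are STAR 2.5.2a, HTSeq 0.6.1p1, Trim Galore 0.4.4 and edgeR, with mm10 as the build; neither annotation nor strand setting is stated, so reads of the 9 members with exons on an overlapping opposite-strand gene (GENCODE M21, GRCm38) may be mixed or lost.

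Rows that name no gene (28.8% to 30.6% of counts) were left out. Gene counts per library were 16643228 to 25232956, at which 3 reads are 0.119 to 0.180 CPM. Testing used edgeR 4.0.16 under R 4.3.3 (TMM, filterByExpr with minimum count 10 and minimum total 15, quasi-likelihood F test with group as the only term), adjusted by Benjamini-Hochberg over the 11731 genes kept; a gene with adjusted p under 0.05 is said to have changed. The SE is the absolute log2 fold change over the square root of F. CPM uses the total of gene counts, and CPM per kb the merged exon length. As a check of the code, the fit was run on simulated counts in which few genes changed. In these data 64.0% of genes tested passed, a setting that the simulation did not cover.

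The members and gene lists were chosen with earlier results of these data known. All 43 members are named. Of each other pathway list, the 3 largest called rises and falls (mean log2 CPM at least 1) and the 2 most abundant genes are named. Of each cell marker list the most abundant gene is named, and of the progenitor list also every other gene but Prtn3. Further subunits of complexes were picked after their values were seen. Alternatives used RLE, upper quartile or no scaling, other filters, DESeq2 1.42.0, limma-voom (limma 3.58.1), a replicate block and each library left out. Same-numbered libraries did not deviate together (correlations 0.0038 to 0.073), so the numbers were not taken as pairs.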

Additional observations from a re-analysis of the deposited data

How the results depend on the processing

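Over 14 alternatives, the 11 rises and 2 falls among replication genes were 10 or 11 and 2 to 4, and the 16 falls among mitotic genes 13 to 21 with 0 rises in each. Leaving out 1 library at a time gave 2 to 4 replication genes lower, and 9 to 16 of the other replication genes lower, against 15 with all libraries. Upper quartile scaling shifted the median of all genes to -0.11 and moved the medians to 0.19 (replication) and -0.52 (mitotic); relative to all genes they were 0.30 and -0.41, as with TMM. It gave 21 mitotic falls, adding Top2a, Ccnb1, Kif11, Tpx2 and Foxm1, and turned the sign of Gins1 (-0.094) and Aurka (-0.018). Leaving out a library also turned the sign of 4 genes that did not pass, over ranges of -0.077 to 0.013 in Mcm5, -0.075 to 0.079 in Mcm10, -0.090 to 0.14 in Gins1 and -0.37 to 0.044 in E2f1. With the replicate block, 11 replication genes rose and 3 fell, Mcm7 joining (-0.21, adjusted p = 0.0177), and 16 mitotic genes fell; it changed no other call among the 43. TMM-scaled CPM left the sums at 1.12 and 0.767 of control. With 3 libraries per group, the smallest log2 change that passed among the 43 genes was -0.22 (Ccna2).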

Other observations

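Several multi-subunit complexes had members that moved apart. These were picked out after their values were seen, and each direction that passed kept its sign under all scalings. Across all genes tested 32.8% rose and 31.2% fell, so mixed calls within a complex say nothing particular about it. Other complexes had calls in 1 direction alone. Falls alone were seen in the chromosomal passenger complex (3 of 4 genes), centralspindlin (2 of 2), GINS (2 of 4) and condensin I (3 of 5). In replication protein A, 1 of 3 genes rose and none fell. Of the 6 ORC genes, 4 rose, Orc2 and Orc4 (0.43 ± 0.11) besides the 2 above, while Orc5 fell (-0.43 ± 0.14; not called without GM-CSF replicate 2 or control replicate 1 or 2) and Orc3 did not pass. In the GINS complex Gins3 (-0.61 ± 0.12) and Gins4 (-0.33 ± 0.08) fell beside Gins1 and Gins2, which did not pass. In DNA polymerase epsilon the small subunits Pole3 (0.40 ± 0.10) and Pole4 (0.59 ± 0.10) rose and Pole2 (-0.49 ± 0.12) fell. In DNA polymerase delta Pold2 rose (0.65 ± 0.08), while Pold1 (-0.33 ± 0.10) and Pold4 (-0.57 ± 0.22) fell. Of 14 alternative settings, 10 kept the Pold1 call and 6 the Pold4 call. In the clamp loader Rfc1 (-0.53 ± 0.08) and Rfc2 fell while Rfc3 rose (0.34 ± 0.10; not called with upper quartile scaling).

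The kinetochore NDC80 complex split as well, with Ndc80 (-0.36 ± 0.09), Nuf2 (-0.38 ± 0.07) and Spc24 (-0.33 ± 0.11) lower and Spc25 higher (0.37 ± 0.08). The Spc24 call ended without GM-CSF replicate 1 or 2 or control replicate 1 or 3. In condensin I the non-SMC subunit genes Ncapd2 (-0.48 ± 0.09), Ncapg (-0.25 ± 0.08) and Ncaph (-0.21 ± 0.08) fell. Of 14 alternative settings, 12 kept the Ncapg call and 10 the Ncaph call. Smc2 (0.14 ± 0.08) and Smc4 (0.05 ± 0.07), whose products also serve condensin II, did not pass.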
